A study of Mus musculus with 4 samples.

Results

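The genes described here are those of major histocompatibility complex (MHC) class II antigen presentation and of T cell costimulation in macrophages, namely Ciita, H2-Aa, H2-Ab1, H2-Eb1, H2-DMa, H2-DMb1, Cd74, Cd80, Cd86 and Cd40. The measurement was chromatin accessibility by ATAC-seq, in which the Tn5 transposase inserts sequencing adapters into open DNA, so that an accessible stretch is called as a peak. Merging the peaks of the 4 libraries wherever they shared 1 bp or more gave 60710 regions, and a region was assigned to one of these genes where its highest peak carried that gene name in the deposited annotation. All 10 genes had at least 1 region, and 35 regions were found in all. The cells were bone marrow-derived macrophages (BMDMs) of wild-type C57BL/6 mice aged 8 to 12 weeks, grown from bone marrow for 6 days in L929 cell supernatant, which supplies macrophage colony-stimulating factor (M-CSF). The control group (n = 2) received no further cytokine, and the IL-4 group (n = 2) was exposed to IL-4 at 20 ng/ml for 1 h. The libraries of a group are biological replicates by the methods of the study, and every library, control included, comes from cells differentiated in vitro with M-CSF. The comparison asks whether accessibility around these genes differed within the first hour of IL-4. No region of these genes passed the adjusted test. The most negative fitted difference was in an intron 1 region of Cd86, which encodes a ligand of CD28, and the most positive was in an intron 1 region of Cd74, the invariant chain gene, and both are given with their errors. The 5 regions of Cd86 and Cd80 with a peak in every library had lower deposited heights with IL-4. In each, both IL-4 libraries lay below both control libraries, as in 29.3% of all regions tested. After normalisation 4 of them kept this order, which 18.6% of all regions tested then had. At the Cd40 promoter region, also with a peak in every library, the groups overlapped. The surface chain genes H2-Aa, H2-Ab1 and H2-Eb1 had low peaks that came and went between replicates.

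MHC class II molecules are pairs of an alpha and a beta chain that display peptides from engulfed material to CD4+ T cells. Their genes are switched on together by CIITA, a coactivator that does not bind DNA itself but is recruited by factors sitting on a conserved promoter module of X and Y boxes. The invariant chain CD74 keeps the peptide groove closed until the H2-DM dimer helps to load a peptide, and CD80, CD86 and CD40 supply the second signal that a T cell needs for activation.

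The module was found in the accessible sequence of H2-DMb1 and H2-Eb1. In the regions at the H2-DMb1 promoter (chr17:34153041-34153235, plus strand, mm10) and the H2-Eb1 promoter (chr17:34305714-34305835, plus strand), capitals mark an X box core (AGNAACNG) followed by a Y box core (GATTGG), and in H2-DMb1 also an AP-1 site (TGANTCA) between them. They are shown because these were the only member regions in which both cores lay 20 to 30 bases apart in the same orientation. All sequences were read from the RefSeq genome GRCm38.p6, whose coordinates are those of mm10, and are printed 5′ to 3′ on the strand of the gene.
H2-DMb1 promoter region: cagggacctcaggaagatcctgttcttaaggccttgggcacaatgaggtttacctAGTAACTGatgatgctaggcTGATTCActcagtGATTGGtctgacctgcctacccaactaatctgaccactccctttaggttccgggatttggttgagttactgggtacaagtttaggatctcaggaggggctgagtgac
H2-Eb1 promoter region: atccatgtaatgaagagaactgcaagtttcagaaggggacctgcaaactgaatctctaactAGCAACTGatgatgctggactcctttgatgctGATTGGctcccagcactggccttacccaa
The gap between the cores was 25 bases in H2-DMb1 and 24 bases in H2-Eb1. The longest run of letters that both regions share is aactgatgatgct, 13 bases long, which begins inside the X box core and runs past it. Such a pair was found in 34 of the 60710 windows of 300 bases centred on a region (0.056%) and in 24 of 32851 RefSeq promoters (0.0731%). H2-DMb1 has a near-identical neighbour, H2-DMb2, so reads at its promoter may have been placed at either copy.

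Regions on which the comparison of the groups turns are shown next. At Cd86, which lies on the minus strand, these are the member region with a peak in both IL-4 libraries and in no control library (chr16:36669706-36669850, capitals: PU.1 core, GAGGAA, here read on the opposite strand), the intron 1 region with the lowest unadjusted p (chr16:36655971-36656270, the central 300 bases, capitals: TGACG, the core of the X2 box, on the opposite strand) and the intron 2 region with the highest peaks (chr16:36626894-36627193, the central 300 bases, capitals: PU.1 cores on the opposite strand and an AP-1 site).
Cd86 upstream region: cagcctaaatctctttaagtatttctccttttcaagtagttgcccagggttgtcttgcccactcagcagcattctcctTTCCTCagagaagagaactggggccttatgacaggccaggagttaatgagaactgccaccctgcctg
Cd86 intron 1 region: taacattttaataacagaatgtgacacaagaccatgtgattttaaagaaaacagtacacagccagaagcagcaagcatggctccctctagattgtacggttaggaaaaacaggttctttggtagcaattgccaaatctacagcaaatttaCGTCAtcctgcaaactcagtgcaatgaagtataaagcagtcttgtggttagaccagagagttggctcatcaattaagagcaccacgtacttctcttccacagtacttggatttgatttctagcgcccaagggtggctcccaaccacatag
Cd86 intron 2 region: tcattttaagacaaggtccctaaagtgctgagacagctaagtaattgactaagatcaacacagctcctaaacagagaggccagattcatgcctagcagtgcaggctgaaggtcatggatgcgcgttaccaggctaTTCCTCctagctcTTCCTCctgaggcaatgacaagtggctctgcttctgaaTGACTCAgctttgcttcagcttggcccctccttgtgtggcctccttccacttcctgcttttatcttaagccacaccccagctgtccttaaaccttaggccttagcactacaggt
The highest region of Cd80 (chr16:38457197-38457462, plus strand) holds 2 PU.1 cores on the opposite strand, in capitals. The region upstream of Ciita with a peak in both control libraries and in neither IL-4 library (chr16:10476043-10476180, plus strand) held none of the motifs searched and is printed without capitals.
Cd80 upstream region: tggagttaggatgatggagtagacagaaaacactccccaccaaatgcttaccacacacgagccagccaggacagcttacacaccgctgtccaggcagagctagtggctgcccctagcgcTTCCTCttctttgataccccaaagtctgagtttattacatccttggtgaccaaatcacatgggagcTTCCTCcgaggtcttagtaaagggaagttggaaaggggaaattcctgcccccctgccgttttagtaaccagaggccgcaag
Ciita upstream region: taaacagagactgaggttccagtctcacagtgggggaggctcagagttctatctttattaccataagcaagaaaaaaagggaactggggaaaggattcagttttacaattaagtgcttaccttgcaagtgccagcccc
One region of the class II surface chain genes held the palindrome TTCNNNNGAA, the spacing that STAT6, the transcription factor activated by IL-4, prefers. It lies upstream of H2-Aa (chr17:34296122-34296337, minus strand), and capitals mark the palindrome and the letters TGACG on the opposite strand.
H2-Aa upstream region: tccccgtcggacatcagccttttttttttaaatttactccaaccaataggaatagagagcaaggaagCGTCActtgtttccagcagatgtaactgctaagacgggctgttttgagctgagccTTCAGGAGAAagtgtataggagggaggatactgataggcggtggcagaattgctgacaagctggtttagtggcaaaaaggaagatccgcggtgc

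Each peak carries a deposited score, called peak height here and taken to be −log10 q of the peak caller, so that a height of 2 stands for q of 0.01. Height measures the evidence for a peak in its own library and grows with sequencing depth, which is unknown here because no reads or counts were used. The control libraries held 45250 and 41885 peaks with median heights of 8.04 and 7.46, and the IL-4 libraries 41978 and 39462 peaks with medians of 7.69 and 6.41. IL-4 replicate 2 had the fewest peaks, the lowest median and the most peaks under a height of 2 (603, against 133 to 267 in the others), so in this library a closed region cannot be told apart from a peak below the detection limit. In a bulk library fewer cells with an open site and a less open site in each cell cannot be told apart either. With 2 libraries per group, p-values measure only the spread between these libraries.

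Whether a peak was called in a member region often varied from library to library, and regions of like height were not compared. Of the 35 regions, 10 had a peak in all 4 libraries (28.6%, against 41.9% of all regions), 7 in 3 libraries (20.0%, against 13.3%), 7 in 1 library of each group (20.0%, against 8.36%) and 8 in 1 library (22.9%, against 29.6%). One region was IL-4-only, meaning that it had a peak in both IL-4 libraries and in neither control library (2.86%, against 2.53% of all regions). Control-only regions numbered 2 (5.71%, against 4.33%). The shares of group-only regions thus lay near those of all regions.

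**Figure D1:**
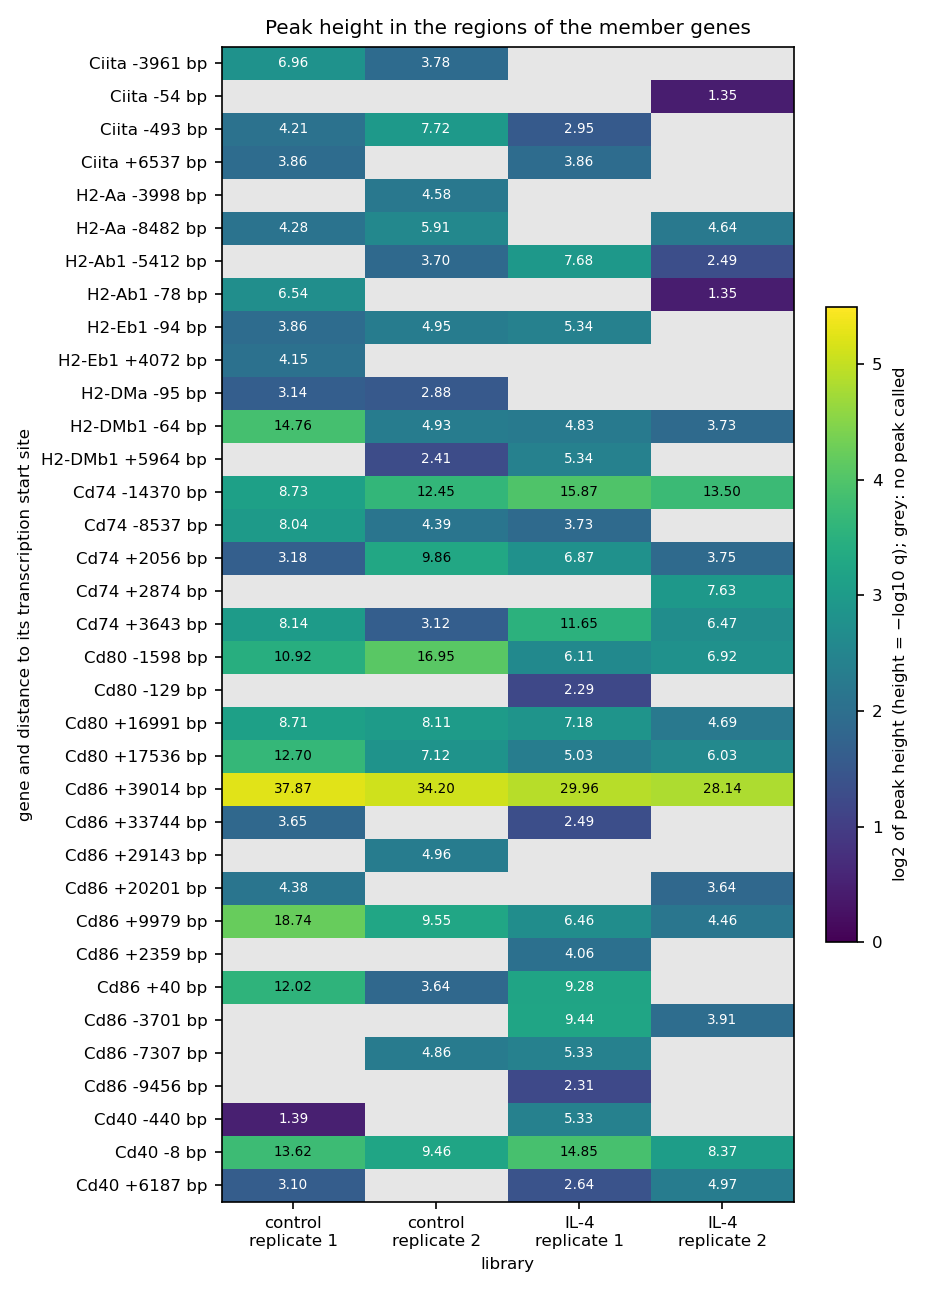
Peak height (−log10 q, colour on a log2 scale and printed in each cell) of the 35 member regions, in rows by gene and distance to the transcription start site (TSS), in the 4 libraries, in columns; grey cells have no peak. The Cd86 region at +39014 bp stands highest in every library, from 28.14 to 37.87, and the class II surface chain genes have no row with 4 peaks.

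Most member regions were modest in height. The median over regions of the mean height was 4.96, against 6.00 over all 60710 regions, and among regions with 4 peaks it was 8.76 against 10.8. Of the 10 member regions annotated as promoter, 2 had a peak in all 4 libraries, namely those of H2-DMb1 and Cd40, against 69.4% of all 11416 promoter regions. Their median mean height was 4.33, against 9.37 over all promoter regions. The remaining member regions were 15 in introns and 10 between genes. The class II genes, Ciita, the surface chains, H2-DM and Cd74, had 18 regions, of which 4 had 4 peaks (22.2%). The costimulatory genes had 17 regions, of which 6 had 4 peaks (35.3%).

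**Figure D2:**
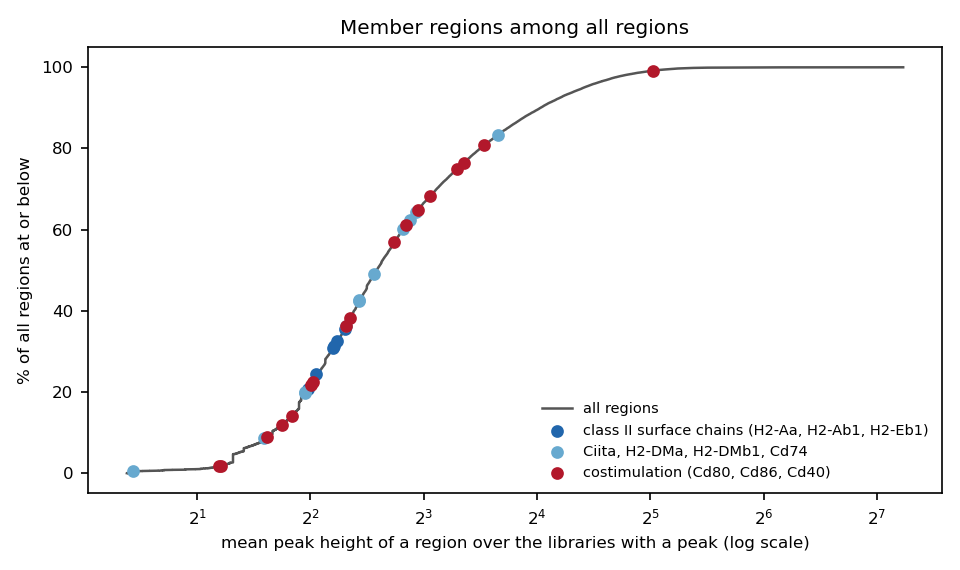
Mean peak height of a region over the libraries with a peak (x axis, log scale) against the percent of all 60710 regions at or below that height (y axis); the line is all regions and the points are the member regions by role. The 6 regions of the class II surface chains lie between mean heights of 3.945 and 4.94, and the Cd86 region at +39014 bp lies above 99.2% of all regions.

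Ciita, the gene of the class II coactivator, had 4 regions and none with a peak in every library. The region 3961 bp upstream of its TSS, which is the printed one, had heights of 6.96 and 3.78 in the control libraries and no peak in either IL-4 library. At the promoter of transcript NM_001243761 (chr16:10489203-10489428, 493 bp upstream of that TSS) heights were 4.21 and 7.72 in the control libraries and 2.95 in IL-4 replicate 1, with no peak in IL-4 replicate 2. The other promoter region, 54 bp upstream of the TSS of NM_007575 (chr16:10488075-10488174), had a single peak of 1.35, in IL-4 replicate 2. An intron 1 region 6537 bp inside the gene had heights of 3.86 in control replicate 1 and 3.86 in IL-4 replicate 1. Over these regions Ciita peaks ranged from 3.78 to 7.72 in the control libraries and from 1.35 to 3.86 in the IL-4 libraries. The ranges pool different regions. Deposited heights ran lower with IL-4 in general: 29.3% of all regions tested were lower in both IL-4 libraries than in both control libraries, and 8.83% higher. Regions without 4 peaks were not part of the limma fit, so these heights are given without a test.

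The 3 surface chain genes, H2-Aa, H2-Ab1 and H2-Eb1, had 2 regions each, and their peaks ranged from 1.35 to 7.68. H2-Aa encodes the alpha chain of I-A, and it had no promoter peak in any library. The printed region 8482 bp upstream of it, which also lies within 10 kb of H2-Eb1, had heights of 4.28 and 5.91 in the control libraries and 4.64 in IL-4 replicate 2, with no peak in IL-4 replicate 1. A second upstream region, at 3998 bp, had 1 peak, of 4.58 in control replicate 2. H2-Ab1 encodes the I-A beta chain. Its promoter region (chr17:34263093-34263312, 78 bp upstream of the TSS) had a height of 6.54 in control replicate 1 and 1.35 in IL-4 replicate 2, and the replicates of each group differed in whether a peak was called. The region 5412 bp upstream had heights of 3.70 in control replicate 2 and of 7.68 and 2.49 in the IL-4 libraries. H2-Eb1, the beta chain of I-E, had the steadiest promoter of the 3, with heights of 3.86 and 4.95 in the control libraries and 5.34 in IL-4 replicate 1, and no peak in IL-4 replicate 2. An intron 2 region of H2-Eb1 had 1 peak, of 4.15 in control replicate 1. None of these regions separated the groups.

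H2-DMa and H2-DMb1 encode the chains of H2-DM, the peptide editor. The promoter region of H2-DMb1, 64 bp upstream of the TSS, had heights of 14.76 and 4.93 in control and 4.83 and 3.73 in IL-4. After quantile normalisation its log2 height was 2.98 ± 0.99 (SD, n = 2) in control and 2.21 ± 0.0092 (SD, n = 2) in IL-4, a difference of -0.77 ± 0.55 (SE, limma, adjusted p = 0.762). This difference rested on control replicate 1, since it was -0.10 without that library. An intron 3 region of H2-DMb1 had heights of 2.41 in control replicate 2 and 5.34 in IL-4 replicate 1. The single region named H2-DMa (chr17:34122650-34122825) was control-only, with low heights of 3.14 and 2.88. It lay 95 bp upstream of the TSS of the H2-DMa transcript NM_010386. The files also annotate it as the promoter of NM_001204973, a transcript of the neighbouring gene Brd2, so it cannot be told which of the 2 genes it belongs to. Its 300-base window had a GC content of 73.3% and 30 CpG dinucleotides, against a median of 4 over all windows. Another region (chr17:34135338-34135675) lay in the 5′ UTR of NM_010386 by the deposited annotation but carried the name H2-DMb2. That region had a peak in all 4 libraries, with heights from 11.54 to 25.07, and is described under other observations.

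Cd74 encodes the invariant chain, and it had 5 regions, 3 of them with 4 peaks, but no region within 1 kb of its TSS. The highest was an intergenic region 14370 bp upstream (chr18:60789359-60789601), with heights of 8.73 and 12.45 in control and 15.87 and 13.50 in IL-4. It was the 1 member region whose deposited heights were higher in both IL-4 libraries than in both control libraries. Its normalised log2 height was 3.25 ± 0.51 (SD, n = 2) in control and 3.98 ± 0.06 (SD, n = 2) in IL-4, a difference of 0.72 ± 0.40 (SE, limma, adjusted p = 0.648), which was 0.37 without control replicate 1. In an intron 1 region 3643 bp inside the gene, chosen for description after its values were seen, heights were 8.14 and 3.12 in control and 11.65 and 6.47 in IL-4. Its log2 difference of 1.06 ± 0.54 (SE) was the highest of the members and missed the threshold (limma, adjusted p = 0.613). The third region with 4 peaks, 2056 bp inside the gene, had heights of 3.18 and 9.86 in control and 6.87 and 3.75 in IL-4, and the control libraries lay farther apart than the groups. Of the other Cd74 regions, 1 upstream at 8537 bp had heights of 8.04, 4.39 and 3.73 with no peak in IL-4 replicate 2, and 1 in intron 1 had a single peak of 7.63 in that library.

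Cd86 encodes the costimulatory ligand of CD28 and CTLA-4 that macrophages carry at rest, and with 10 regions it had the most of the 10 genes. The intron 2 region 39014 bp inside the gene had heights of 37.87 and 34.20 in control and 29.96 and 28.14 in IL-4, so the groups did not overlap. The log2 height was 5.12 ± 0.03 (SD, n = 2) in control and 4.92 ± 0.12 (SD, n = 2) in IL-4, a difference of -0.21 ± 0.21 (SE, limma, adjusted p = 0.853) with a 95% interval from -0.62 to 0.21. In the intron 1 region 9979 bp inside the gene, heights were 18.74 and 9.55 in control and 6.46 and 4.46 in IL-4, again without overlap. Of all regions tested, 29.3% were likewise lower in both IL-4 libraries than in both control libraries. The log2 height of the intron 1 region was 3.63 ± 0.57 (SD, n = 2) in control and 2.53 ± 0.14 (SD, n = 2) in IL-4. The difference of -1.11 ± 0.49 (SE), with a 95% interval from -2.08 to -0.13, was the lowest of the members and the only one with an unadjusted limma p under 0.05 (0.0271), and it did not pass the adjustment over all 25442 regions tested (adjusted p = 0.544). Leaving out control replicate 1 gave -0.72, and leaving out any of the other 3 libraries gave -0.998 to -1.52.

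The Cd86 promoter (chr16:36665823-36666130, centred 40 bp inside the gene) had heights of 12.02 and 3.64 in the control libraries and 9.28 in IL-4 replicate 1, with no peak in IL-4 replicate 2. The IL-4-only region lay 3701 bp upstream of the TSS and had heights of 9.44 and 3.91 in the IL-4 libraries. It held no TTCNNNNGAA, and a TTCNNNGAA, the palindrome with the shorter spacing that other STAT proteins use, stood in its 300-base window but outside the region itself. The other 6 Cd86 regions had 1 or 2 peaks each, between 2.31 and 5.33, and 3 of them had a peak in 1 library of each group.

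**Figure D3:**
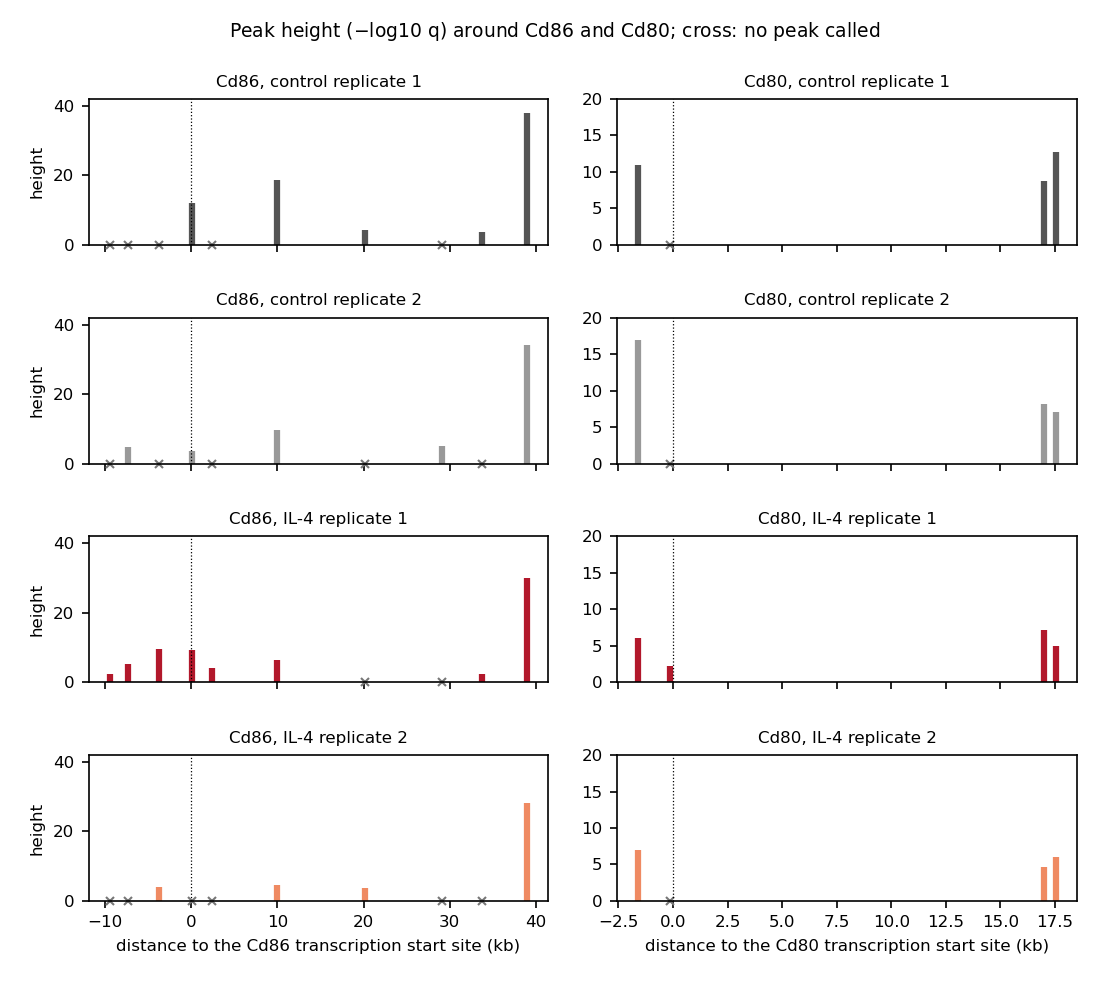
Peak height (−log10 q, y axis) against distance to the TSS in kb (x axis, positive into the gene) for Cd86 on the left and Cd80 on the right, 1 library per row; bars are peaks, crosses mark member regions without a peak in that library and the dotted line is the TSS. The Cd86 bar at +39014 bp is present in all 4 rows, and the Cd86 bar at −3701 bp in the 2 IL-4 rows only.

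Cd80 encodes the second CD28 and CTLA-4 ligand, and 3 of its 4 regions had 4 peaks. The region 1598 bp upstream of the annotated TSS, inside which the RefSeq gene model of Cd80 begins, had heights of 10.92 and 16.95 in control and 6.11 and 6.92 in IL-4. Its log2 height was 3.65 ± 0.59 (SD, n = 2) in control and 2.83 ± 0.38 (SD, n = 2) in IL-4, a difference of -0.82 ± 0.47 (SE, limma, adjusted p = 0.665). The groups did not overlap there, but the difference was -0.41 without control replicate 2. The intron 2 region at 16991 bp had heights of 8.71 and 8.11 in control and 7.18 and 4.69 in IL-4. The intron 2 region at 17536 bp had heights of 12.70 and 7.12 in control and 5.03 and 6.03 in IL-4. All 3 thus had lower deposited heights in both IL-4 libraries than in both control libraries, as did 29.3% of all regions tested. After normalisation the groups overlapped at 17536 bp, with log2 heights of 3.46 and 2.81 in control and 2.25 and 2.88 in IL-4. The log2 differences were -0.29 and -0.57 in the intron regions at 16991 and 17536 bp (limma, adjusted p = 0.930 and 0.830). The annotated promoter, 129 bp upstream of the TSS, had a single peak of 2.29, in IL-4 replicate 1.

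Cd40 encodes the receptor through which helper T cells license antigen-presenting cells. Its promoter region (chr2:165055472-165055768, 8 bp upstream of the TSS) had heights of 13.62 and 9.46 in control and 14.85 and 8.37 in IL-4, and the groups overlapped. The log2 height was 3.39 ± 0.24 (SD, n = 2) in control and 3.60 ± 0.34 (SD, n = 2) in IL-4, a difference of 0.22 ± 0.42 (SE, limma, adjusted p = 0.936) with a 95% interval from -0.62 to 1.05. This difference was negative on raw heights and without IL-4 replicate 1. A second promoter region, 440 bp upstream, had heights of 1.39 in control replicate 1 and 5.33 in IL-4 replicate 1, and an intron 1 region at 6187 bp had 3.10 in control replicate 1 and 2.64 and 4.97 in the IL-4 libraries.

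**Figure D4:**
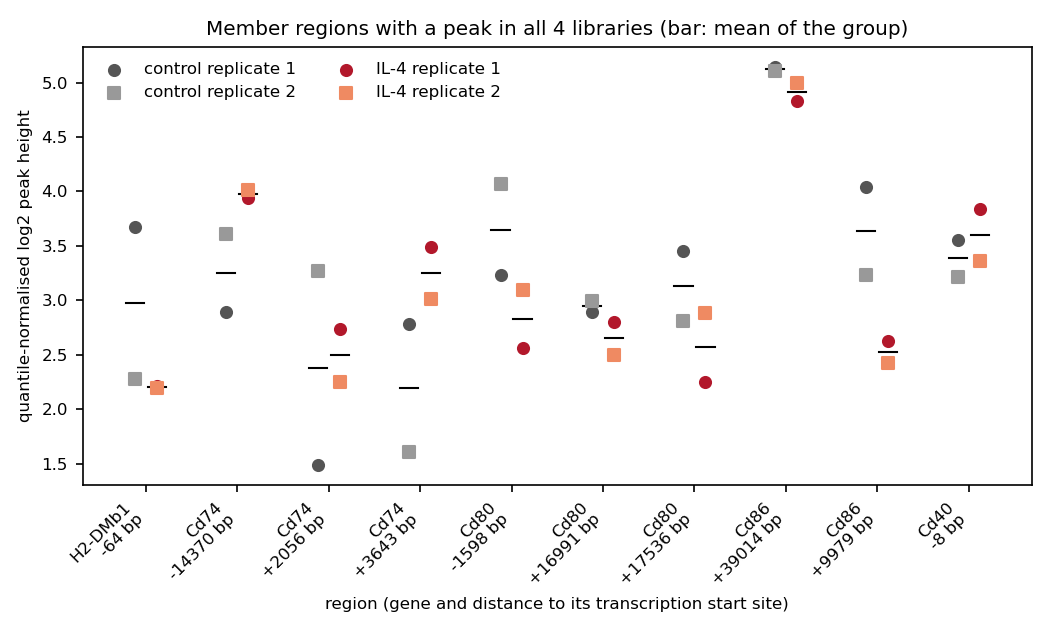
Quantile-normalised log2 peak height (y axis) of the 10 member regions with 4 peaks (x axis); points are the 2 control libraries (grey) and the 2 IL-4 libraries (red), and bars are group means. At Cd86 +9979 bp both IL-4 points lie below both control points, and at Cd74 −14370 bp both lie above.

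Over the 10 regions tested, none passed an adjusted p of 0.05 with limma, and 1 had an unadjusted p under 0.05. Among all 25442 regions tested 4 were called higher (0.0157%) and 2 lower (0.00786%), and 8.28% had an unadjusted p under 0.05. The lowest adjusted p of a member was 0.544. The log2 difference was positive in 4 regions and negative in 6, with a median of -0.25 against 0.00 over all regions tested, whose SD was 0.50. The 4 class II regions had a median of 0.42 and the 6 costimulatory regions one of -0.43. Of the class II regions 3 belonged to Cd74, and the other, the H2-DMb1 promoter, had a difference of -0.77. The medians describe few regions, several of them in the same gene, and the difference between the gene groups was not tested.

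In deposited heights the groups did not overlap in 7 of the 10 regions, of which 1 was higher in IL-4 (8.83% of all regions tested) and 6 were lower (29.3%). After normalisation 2 regions were higher (19.2%) and 5 lower (18.6%). The 5 were the 2 Cd86 regions, the Cd80 regions at −1598 bp and +16991 bp, and the H2-DMb1 promoter. The mean normalised log2 height of the 10 regions was 3.32 and 3.22 in control and 3.13 and 3.08 in IL-4. That difference of -0.165 gave p = 0.333 in a two-sided exact permutation test over libraries, the smallest p that 2 against 2 libraries allow. The member genes had 24 and 23 peaks in control and 25 and 18 in IL-4, a difference of -2.0 (exact permutation test, two-sided, p = 1.0).

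**Figure D5:**
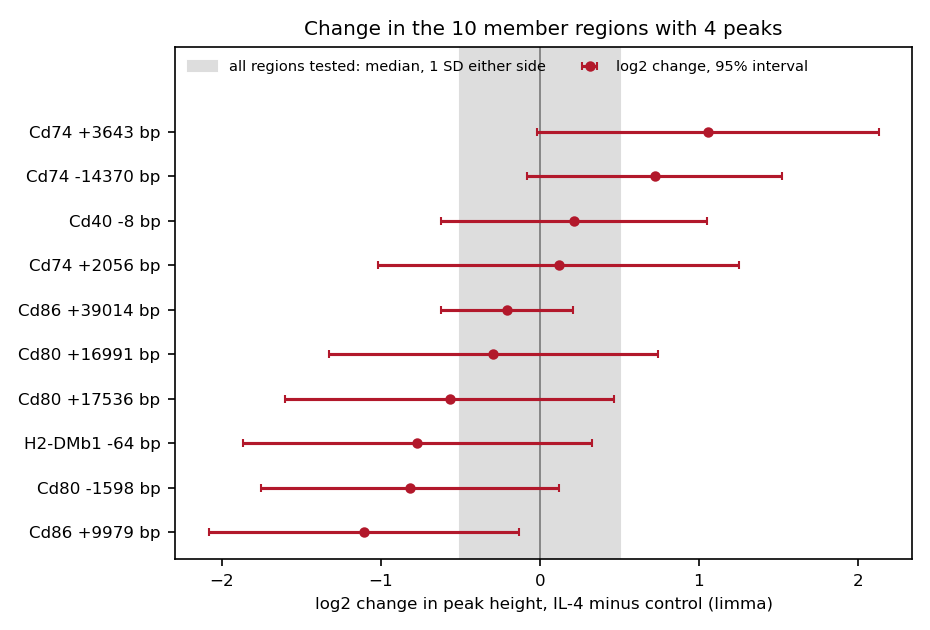
Log2 change in peak height, IL-4 minus control, from the limma fit (x axis) for the 10 member regions with 4 peaks (y axis); points are estimates, bars 95% intervals, and the grey band is the median of all 25442 regions tested with 1 SD of 0.50 either side. The interval of 1 region, Cd86 +9979 bp, leaves out 0, and none of the 10 passed the adjusted threshold.

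Motif letters were counted beside their share in all regions. Counted on both strands in 300-base windows, TTCNNNNGAA was found in 3 of 35 member windows (8.57%, against 8.99% of all windows) and TTCNNNGAA in 3 (8.57%, against 8.86%). The 3 windows with the STAT6 spacing were those of Cd40 at −440 bp, Ciita at +6537 bp and H2-Aa at −8482 bp, and none of them was IL-4-only. The PU.1 core GAGGAA, the mark of the macrophage ETS factor, was found in 17 (48.6%, against 43.0%) and the AP-1 site TGANTCA in 8 (22.9%, against 23.3%). The class II box cores were found in 10 for AGNAACNG (28.6%, against 22.0%), 5 for GATTGG (14.3%, against 10.7%) and 7 for TGACG (20.0%, against 17.6%). The ETS-IRF composite GGAANNGAAA and the NF-kB site GGGNNTTTCC were each found in 1 (2.86%, against 5.36% and 1.67%). A match of letters is not evidence of a bound factor, and motifs may overlap one another.

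Other genes of the class II pathway were listed as well. The list held 15 genes, among them the X box factors Rfx5, Rfxank and Rfxap, the Y box factor subunits Nfya, Nfyb and Nfyc, and the lysosomal proteases Ctss and Lgmn. Of these 14 had a region, with H2-Eb2 the exception, and 34 of their 60 regions had 4 peaks (56.7%). None passed the adjusted limma threshold in either direction (lowest adjusted p = 0.451), and at an unadjusted p under 0.05 there were 1 higher and 2 lower of the 34 (against 8.28% of all regions tested in either direction). The median log2 difference was -0.11. IL-4-only regions were found at Creb1, which encodes a factor of the X2 box (86582 bp upstream of the TSS, heights 5.34 and 9.31), and at March1, whose ubiquitin ligase removes class II from the surface (heights 8.06 and 4.61). The March1 region lay 37280 bp upstream of the TSS used for the distance, and the deposited annotation places it in intron 4 of the transcript NM_001166372. A control-only region named Lgmn had heights of 3.79 and 8.78. It lay 60515 bp downstream of the annotated Lgmn TSS, and the deposited annotation places it in intron 7 of the transcript NM_001161365.

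The 13 other costimulatory and coinhibitory ligands all had a region, and 21 of their 67 regions had 4 peaks (31.3%). None passed the adjusted limma threshold (lowest adjusted p = 0.261), and at an unadjusted p under 0.05 there were 2 higher and 3 lower of the 21 (against the same 8.28%). The median log2 difference was 0.07. Pdcd1lg2, which encodes the PD-1 ligand PD-L2, had 1 region of each kind: an IL-4-only region 8707 bp inside the gene, with heights of 9.47 and 5.64, and a control-only region at 19786 bp, with heights of 4.28 and 3.78. The other 4 control-only regions were at Cd48 (8.34 and 8.78), which encodes a ligand of CD244, at Cd276 (5.41 and 4.38) and Cd274 (3.34 and 2.22), of the same B7 family as Cd80 and Cd86, and at Tnfsf4 (5.65 and 2.66), which encodes OX40 ligand. Over the 127 regions of both lists 3 were IL-4-only (2.36%, against 2.53% of all regions) and 6 control-only (4.72%, against 4.33%), shares near those of all regions.

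Class II and costimulatory genes are also active in B cells and dendritic cells, so the marker genes of other cell types were looked up as peaks within 1 kb of a TSS. Of 8 macrophage markers 7 had such a peak in every library, with Csf1r the exception, and their summed heights were 86.25 and 75.59 in control and 69.76 and 69.18 in IL-4. Among the B cell markers reported, Ebf1 had one in each library, with heights of 5.62, 8.63, 6.88 and 4.37, while Cd79a, Cd79b, Ms4a1 and Pax5 had none. Of 6 dendritic cell markers Zbtb46 (3.52, 5.40 and 3.45) and Flt3 (9.22, 2.36 and 9.33) had one in control replicates 1 and 2 and IL-4 replicate 1, and none had one in IL-4 replicate 2, so that their summed heights were 12.74 and 7.76 in control and 12.78 and 0 in IL-4. No T cell marker of 5 had one, and of 5 neutrophil markers S100a8 had one in each library (6.63, 6.18, 6.62 and 2.49). The promoter peaks of H2-Eb1 and Cd86 and the NM_001243761 promoter peak of Ciita were likewise present in the same 3 libraries and absent from IL-4 replicate 2. Other member promoters had a peak there: H2-DMb1 (3.73), Cd40 at −8 bp (8.37), H2-Ab1 (1.35) and NM_007575 of Ciita (1.35). Over all regions, 28960 had a peak in each remaining library when IL-4 replicate 2 was left out. Leaving out another library instead gave 26516 to 27187. The share of promoter regions alone with this pattern was not counted. Zbtb46, Flt3 and the class II genes are also accessible in some macrophages. The part of library depth or of other cell types in the absences from IL-4 replicate 2 was not tested.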

How the data were processed

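ATAC-seq libraries of wild-type BMDMs, 2 control and 2 IL-4, were compared. The authors aligned reads to mm10 with BWA, called peaks with MACS2 in each library separately, removed blacklisted regions and annotated peaks with HOMER; the submitters' processing notes name BWA 0.7.10, SAMtools 0.1.19, HOMER 4.2 and MACS2 2.0.10. Tn5 shifting and duplicate handling are not given in the sources used here, and both could alter peak edges and heights. The deposited peak score was read as −log10 q, since its lowest values of 1.3 to 1.32 correspond to q of 0.05; no label states its unit, and the methods of the authors name q of 0.01. The deposited distance to the TSS, also listed as a score, is in bp. Depth is unknown, so no counting interval could be given.

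Regions were merged at 1 bp of overlap (bedtools 2.31.1 was used to check the merge). A region took the highest height per library and the gene name of its highest peak. Heights of the 25442 regions with 4 peaks were log2-transformed, quantile-normalised and fitted with limma 3.58.1 in R 4.3.3 (eBayes with trend, Benjamini-Hochberg adjustment, threshold 0.05), without a replicate block. On simulated data with 200 of 25442 regions changed by 2.5 on the log2 scale, 97.5% were recovered with 9 false calls. The simulated spread was a smooth function of height. The member difference farthest from 0 was -1.11, so this recovery does not apply to changes of the size seen in the members. TSS distances matched RefSeq GRCm38.p6 within 2 bp in 33 of 35 member regions. Of the members 5 had an entry in the RefSeq promoter table. The markers Spi1 and Adgre1 were found under their older symbols, and 1 marker gene is not reported here.

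All member genes were named. Regions within 1 kb of a TSS or annotated as promoter, the highest region of each gene, group-only regions and those with an unadjusted p under 0.05 were described singly, and genes of the other lists only for group-only or called regions. Members and lists were chosen with earlier results of these data known. Alternatives were a minimum height of 2, merging within 500 bp, naming by the widest peak, other scalings, no variance trend, a height floor, a replicate block, and each library left out. Mitochondrial peaks were not analysed here.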

Additional observations from a re-analysis of the deposited data

How the results depend on the processing

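No member region passed the adjusted limma threshold under any alternative, whose lowest adjusted p ranged from 0.388 with a height floor for regions in at least 2 libraries to 0.812 without IL-4 replicate 2. At an unadjusted p under 0.05 the number was 0 to 3. IL-4-only member regions went from 1 to 2 without either control library, 3 without IL-4 replicate 1 and 4 without IL-4 replicate 2. Control-only regions went from 2 to 4 without control replicate 1, 6 without IL-4 replicate 1 and 3 without either other library. With a peak in 1 library of the other group tolerated they were 3 and 7. The median log2 difference of -0.25 became -0.18 with median centring and -0.42 on raw heights, where the median of all regions was itself -0.21, and lay between -0.23 and -0.13 with a library left out. The mean log2 height difference of -0.165 became -0.392 on raw heights and lay between -0.166 and -0.0812 with a library left out. The difference in peak number of -2.0 became -5.5 without IL-4 replicate 1. Without IL-4 replicate 2 it changed sign, to 1.5. At the Cd40 promoter the difference of 0.22 became -0.026 on raw heights and lay between -0.025, without IL-4 replicate 1, and 0.452 with a library left out. The cause of these 2 reversals at Cd40, and of the reversal in peak number, was not tested. Of the single regions followed, the other 70 values kept their direction and stayed above the threshold.

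The replicate numbers were not shown to pair the libraries, since the differences between replicates 1 and 2 correlated at 0.0068 between the groups over 25442 regions, which share the libraries. A replicate block gave 14 calls over all regions against 6 without it, and 0 calls among the members (lowest adjusted p 0.501), with a median log2 difference of -0.25. Unknown depth limits every absent peak, and IL-4 replicate 2 most.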

Other observations

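Several accessible regions inside or beside the member genes carried another gene's name in the files and were therefore not counted with them. The promoter region of Adprh, beside Cd80 (chr16:38452478-38452882), had heights of 20.52 and 19.35 in control and 25.50 and 13.61 in IL-4. A region within the RefSeq gene model of H2-DMa (chr17:34135338-34135675) was named H2-DMb2, with heights of 25.07 and 11.54 in control and 17.93 and 15.09 in IL-4. Its deposited annotation is the 5′ UTR, exon 2, of the H2-DMa transcript NM_010386. A second H2-DMb2 region, 2186 bp upstream of that gene, had heights of 10.55 and 12.81 in control and 7.73 and 6.38 in IL-4. Within the gene model of Cd86, 3 regions were named Casr, of which 1 (chr16:36588093-36588217) was control-only, with heights of 6.96 and 3.78. Within Ciita, 2 intron 15 regions were named Dexi, with heights of 2.05 to 3.78 in 1 or 2 libraries each.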
